A study of Mus musculus with 12 samples.

Results

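A set of 10 genes that mark the macrophages resident in heart muscle was followed across the ventricles of mice lacking the RNA helicase gene Ddx5 in cardiomyocytes. They were Csf1r, Adgre1, Mrc1, Cd163, Lyve1, Folr2, F13a1, C1qa, C1qb and C1qc. The set is defined by gene symbol, as known markers of these cells, and was drawn up with earlier results of these data known. All 10 were found in both deposited count tables, among 16673 genes that the tables share. All 10 passed the filter on low counts in every comparison.

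To remove Ddx5 from the heart muscle cells, the study combined floxed alleles with Cre transgenes under the Myh6 promoter, which is active in cardiomyocytes, and sequenced polyadenylated RNA of the left ventricle from male mice in 4 groups of 3 libraries. The constitutive knockout (mCKO, DDX5fl/fl MYH6Cre+) was sampled untreated at an age of 8 weeks. Its controls (CTR1, Ddx5flox/flox) were of the same age and also untreated. The inducible knockout (iCKO, Ddx5flox/flox Myh6MerCreMer) carried a Cre that tamoxifen activates. It received tamoxifen by intraperitoneal injection at 20 mg/kg/day on 5 consecutive days, and the design text places collection at 7 days of tamoxifen. Its controls (CTR2, Ddx5flox/flox) received the same tamoxifen and were age-matched, and the age is not given in the sources used here. Floxed alleles were therefore shared by all 4 groups. Neither control group carried a Cre, so that an effect of Cre and an effect of Ddx5 loss cannot be told apart. The promoter restricts deletion to cardiomyocytes, so the macrophages measured here are not the cells in which the design deletes Ddx5. The labels do not say that the 3 libraries of a group came from separate animals, and p-values measure the spread between these libraries, which may be technical.

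Resident cardiac macrophages lie between the cardiomyocytes, where they clear debris and extruded mitochondria. Their survival depends on the receptor encoded by Csf1r, which binds the growth factors CSF1 and IL-34. Tissue-resident subsets in the heart are usually told from freshly recruited monocytes by scavenger and endocytic receptors such as LYVE1, FOLR2, MRC1 and CD163, while recruited cells carry the chemokine receptor CCR2. Macrophages are also the main source of C1q, the recognition subunit of the classical complement pathway, which is assembled from the A, B and C chains.

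Promoter windows from the RefSeq table for GRCm38.p6 were used for 6 of the 10 genes, with 8 start sites between them. The promoters of the other genes were not examined, so the counts of matches cover only these windows. The 4 windows printed here were chosen with the expression results known, so they are examples and test nothing. They include C1q chains that moved together and a receptor gene that rose with them in the inducible knockout (Mrc1). The last is a receptor gene that did not pass the test there (Cd163). Each window runs 5′ to 3′ on the gene's strand over up to 250 bases before the start. Bases inside an exon of the same gene were left out. Capitals mark matches on either strand to GAGGAA, the core letters of sites for PU.1, the macrophage lineage factor encoded by Spi1, and to TGCTGA, the core letters of sites for large Maf factors. The windows are chr4:136886201-136886450 for C1qb, chr4:136893066-136893164 for C1qc (both minus strand), chr2:14229164-14229391 for Mrc1 and chr6:124304401-124304650 for Cd163 (both plus strand).
C1qb: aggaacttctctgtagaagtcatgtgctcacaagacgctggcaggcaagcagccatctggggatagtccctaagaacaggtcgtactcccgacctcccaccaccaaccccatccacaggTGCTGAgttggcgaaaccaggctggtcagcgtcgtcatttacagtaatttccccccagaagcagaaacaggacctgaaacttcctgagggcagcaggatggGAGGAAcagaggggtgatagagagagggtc
C1qc: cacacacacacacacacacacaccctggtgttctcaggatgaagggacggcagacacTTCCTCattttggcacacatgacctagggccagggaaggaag
Mrc1: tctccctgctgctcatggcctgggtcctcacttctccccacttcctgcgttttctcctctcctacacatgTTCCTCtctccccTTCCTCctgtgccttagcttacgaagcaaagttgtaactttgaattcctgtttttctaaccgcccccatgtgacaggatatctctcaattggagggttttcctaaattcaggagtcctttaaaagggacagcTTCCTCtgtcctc
Cd163: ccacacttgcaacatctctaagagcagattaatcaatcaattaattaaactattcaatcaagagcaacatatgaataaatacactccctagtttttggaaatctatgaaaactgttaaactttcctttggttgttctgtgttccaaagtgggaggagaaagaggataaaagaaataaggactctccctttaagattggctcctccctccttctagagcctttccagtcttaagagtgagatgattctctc

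GAGGAA was found in 4 of the 8 windows, and TGCTGA in 3 of 8. Distances are counted from the RefSeq start and include exon bases left out of the printed windows, as for C1qc and Mrc1. The C1qb window held GAGGAA 30 bases and TGCTGA 131 bases before the start, and the C1qc window held GAGGAA 193 bases before it. The Mrc1 window held GAGGAA at 35, 167 and 180 bases, and the Cd163 window held neither. One window of F13a1 held GAGGAA at 66 bases, and its other window held neither. Both windows of Folr2 held TGCTGA, at 19 and 220 bases, and no GAGGAA, although Folr2 and F13a1 also rose in iCKO. Over all 32851 mouse promoter windows of 250 bases, 23.3% held GAGGAA and 16.1% held TGCTGA. These are letter matches, and the files hold no measurement of binding.

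By the GENCODE M21 annotation of GRCm38, all 10 are protein-coding genes. C1qa (Entrez 12259), C1qc (12262) and C1qb (12260) lie side by side on the minus strand of chromosome 4, at 136895917 to 136898803, 136889804 to 136893065 and 136880129 to 136886187, a cluster of 18675 bases with gaps of 2851 and 3616 bases. Csf1r (12978) lies on chromosome 18 from 61100598 to 61132149, Adgre1 (13733) on chromosome 17 from 57358691 to 57483527, and Mrc1 (17533) on chromosome 2 from 14229392 to 14332057. Cd163 (93671) lies on chromosome 6 from 124304656 to 124330527, Lyve1 (114332) on chromosome 7 from 110850607 to 110863239, Folr2 (14276) on chromosome 7 from 101839988 to 101857194 and F13a1 (74145) on chromosome 13 from 36867178 to 37050244. Exons of other genes, on either strand, overlap 975 of the 1546 exon bases of Folr2 (Gm10602), 873 of 5774 of Csf1r (Hmgxb3) and 74 of 6739 of F13a1 (Gm30489). Whether counting used the strand is not given in the sources used here, so reads of these pairs may be mixed, and the Folr2 values are the most open to this.

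Library totals lay between 19682268 and 25871882 gene counts, and the 10 markers together took 6592 to 36006 of them. Levels are given as CPM, counts relative to the library's size after TMM scaling (edgeR's normalization) within each table, in the order of replicates 1, 2 and 3. The deletion was visible in each knockout library, with mean Ddx5 at 0.409 of control in mCKO and 0.337 in iCKO. Its log2 fold change was -1.57 ± 0.15 (SE) in iCKO (adjusted p = 0.00017). In mCKO it was -1.29 ± 0.20 (adjusted p = 0.17), and -1.26 ± 0.12 (adjusted p = 0.0019) with the replicate number as a block. Replicate 3 of both mCKO and CTR1 stood apart from replicates 1 and 2 across the transcriptome, in the same direction, so results of that experiment are given with and without the block and without both of those libraries.

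The markers were present in every control ventricle. Per kilobase of exon, which allows genes to be compared, the C1q chains were the most abundant in CTR1, at 60.9 ± 13.6 CPM per kb for C1qb, 55.7 ± 9.24 for C1qa and 33.2 ± 4.08 for C1qc (SD, n = 3). On this scale C1qb and C1qa did not differ beyond their spread, and C1qc lay below both. Before division by exon length, C1qc stood at 64.1 ± 7.88 CPM, beside 66.2 ± 14.8 for C1qb and 58.0 ± 9.62 for C1qa. The lower C1qc value thus rests on its exon length of 1931 bases, taken over all annotated transcripts. Which transcript was expressed was not tested. Per kilobase, Csf1r at 12.3 ± 1.17, F13a1 at 11.7 ± 3.89 and Folr2 at 10.7 ± 1.61 CPM per kb followed, within each other's spread. Mrc1 (8.13 ± 0.194), Lyve1 (7.62 ± 2.06), Adgre1 (7.18 ± 0.636) and Cd163 (5.86 ± 0.358) came last. In CTR2 the C1q chains again led, at 37.8 ± 8.49 for C1qa, 36.6 ± 6.201 for C1qb and 20.6 ± 2.25 CPM per kb for C1qc. Lyve1 stood next there at 11.96 ± 4.114, while Folr2 (4.88 ± 0.996) and Adgre1 (4.10 ± 0.683) came last. On a CPM scale common to all 12 libraries, Folr2 stood at 16.6 ± 2.47 in CTR1 and 7.68 ± 1.52 in CTR2, Adgre1 at 23.2 ± 2.03 and 13.5 ± 2.17, and Lyve1 at 22.2 ± 5.98 and 35.6 ± 12.4. The control groups came from separate tables and differ in tamoxifen and possibly in age, which cannot be told apart, so no test was made between them.

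**Figure D1:**
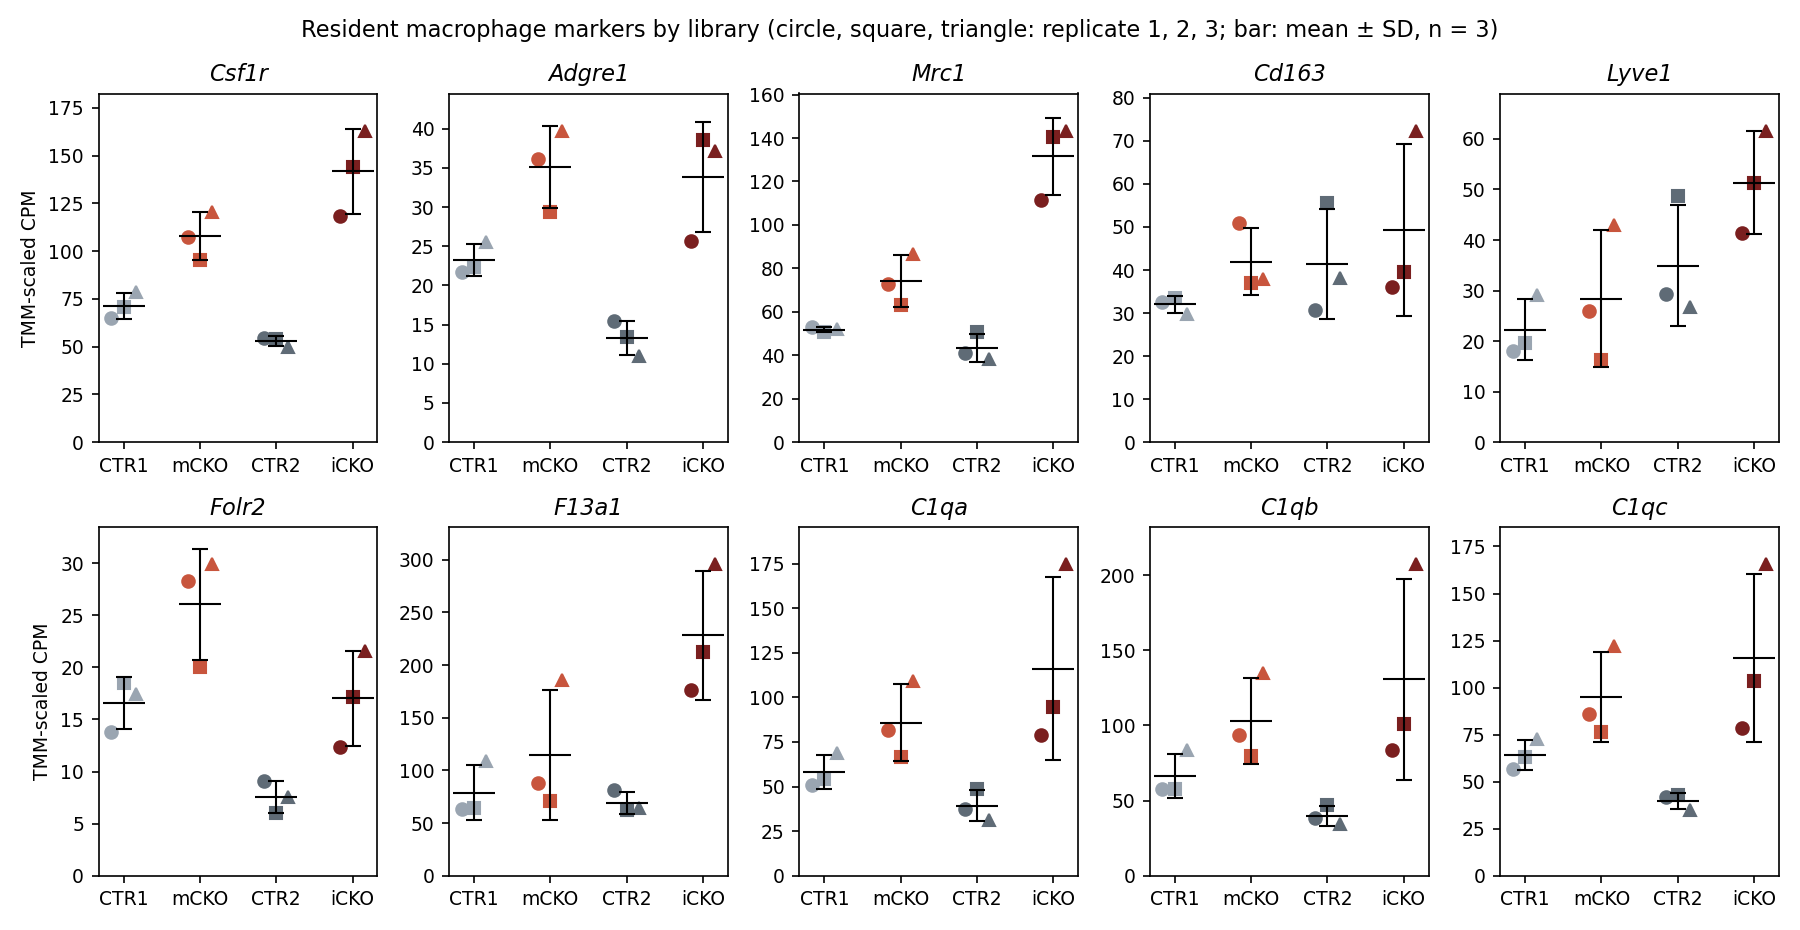
TMM-scaled CPM (vertical axes, linear from 0) of the 10 markers in each of the 12 libraries, with the mean and SD of each group of 3. In iCKO 8 of the 10 panels show all knockout libraries above all controls, and in mCKO 6 of 10, while Cd163 and Lyve1 overlap in iCKO.

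Constitutive loss of Ddx5 was compared with CTR1 to ask what differs in the ventricle when cardiomyocytes lack the helicase constitutively. All 10 markers had a mean above control, by 1.28-fold (Lyve1) to 1.57-fold (Folr2). Csf1r, Adgre1, Mrc1, Cd163, Folr2 and C1qc had all mCKO libraries above all CTR1 libraries, 6 of 10 where 7.69% of all tested genes did. Without the block no marker passed the test, as no gene did (0 of 13353, 0%, with 1164 at an unadjusted p under 0.05; limma-voom also called 0, DESeq2 called 152 higher, 0.881% of its genes, and 110 lower, with Csf1r and Adgre1 among the higher). With the block 8 of 10 markers rose, where 7.32% of all genes were called higher and 6.45% lower. In bulk tissue, more macrophages and more of these transcripts in each macrophage cannot be told apart, here and in every result that follows.

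Csf1r encodes the receptor on which these cells depend for survival. It stood at 65.0, 70.5 and 78.4 CPM in CTR1 and at 107, 95.5 and 120.4 CPM in mCKO. Every knockout library was above every control, and the lowest of them exceeded the highest control by more than the spread among controls. The log2 fold change was 0.60 ± 0.13 (SE, adjusted p = 0.24) without the block and 0.59 ± 0.07 (adjusted p = 0.00051) with it, and DESeq2 called the gene without a block (adjusted p = 0.011). Adgre1, which encodes F4/80, the adhesion receptor used to identify mouse macrophages, stood at 21.8, 22.4 and 25.6 CPM in CTR1 and at 36.1, 29.4 and 39.7 CPM in mCKO. These groups were again separate. The log2 fold change was 0.59 ± 0.14 (adjusted p = 0.27) and with the block 0.59 ± 0.09 (adjusted p = 0.0016).

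Among the scavenger and endocytic receptors, the mannose receptor gene Mrc1 stood at 53.0, 50.5 and 51.9 CPM in CTR1 and at 72.6, 63.1 and 86.8 CPM in mCKO. The controls lay close together, and all knockouts were above them. Mrc1 had a log2 fold change of 0.52 ± 0.13 (adjusted p = 0.30), and of 0.51 ± 0.08 (adjusted p = 0.0032) with the block. Cd163, the haemoglobin-haptoglobin scavenger receptor gene, stood at 32.6, 33.6 and 29.8 CPM in CTR1 and at 51.0, 37.1 and 37.8 CPM in mCKO. Replicate 1 stood above the other knockout libraries, and all 3 were above the controls. Its log2 fold change was 0.39 ± 0.15 (adjusted p = 0.53), and 0.38 ± 0.09 with the block (adjusted p = 0.023). Folr2, the gene of the folate receptor of resident macrophages, stood at 13.8, 18.5 and 17.5 CPM in CTR1 and at 28.3, 20.0 and 29.9 CPM in mCKO, and did not pass the test in either fit (0.65 ± 0.19 and adjusted p = 0.38, or 0.65 ± 0.17 and adjusted p = 0.054 with the block). Lyve1, whose hyaluronan receptor is shared by resident macrophages and lymphatic endothelium, overlapped between the groups. It stood at 18.0, 19.6 and 29.1 CPM in CTR1 and at 26.02, 16.3 and 42.9 CPM in mCKO (0.36 ± 0.37, adjusted p = 0.93, or 0.30 ± 0.17, adjusted p = 0.30 with the block). Without mCKO replicate 3 the Lyve1 value turned to -0.07 (adjusted p = 0.96).

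F13a1 encodes the A subunit of coagulation factor XIII, which macrophages make in tissue. Its levels were 63.1, 64.5 and 109 CPM in CTR1 and 87.6, 71.1 and 186 CPM in mCKO, with replicate 3 the highest in both groups. The groups overlapped, yet each knockout library was above the control of the same number. The log2 fold change was 0.54 ± 0.41 (adjusted p = 0.85) and 0.47 ± 0.11 (adjusted p = 0.034) with the block. Without mCKO replicate 3 and without a block it was 0.01.

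The C1q genes behaved alike. C1qa stood at 50.9, 54.1 and 68.9 CPM in CTR1 and at 81.7, 66.6 and 109 CPM in mCKO. C1qb stood at 57.5, 57.9 and 83.4 CPM in CTR1 and at 93.8, 79.7 and 135 CPM in mCKO. C1qc stood at 56.9, 62.9 and 72.5 CPM in CTR1 and at 86.0, 76.4 and 122 CPM in mCKO. In all 3 genes mCKO replicate 2 was the lowest knockout library and CTR1 replicate 3 the highest control, and these crossed for C1qa and C1qb but not for C1qc. With the block the log2 fold changes were 0.55 ± 0.08 (C1qa, adjusted p = 0.0019), 0.62 ± 0.07 (C1qb, adjusted p = 0.00036) and 0.55 ± 0.09 (C1qc, adjusted p = 0.0035). Without it none passed, at values of 0.57 ± 0.21, 0.63 ± 0.24 and 0.57 ± 0.20 (adjusted p = 0.52, 0.53 and 0.48).

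Leaving out replicate 3 of both groups bears on these calls directly. Without a block, 6 markers then rose, namely Csf1r (0.58 ± 0.08, adjusted p = 0.0049), C1qb (0.59 ± 0.09, adjusted p = 0.0063), C1qc (0.44 ± 0.08, adjusted p = 0.016), Adgre1 (0.57 ± 0.11, adjusted p = 0.018), C1qa (0.50 ± 0.10, adjusted p = 0.02) and Mrc1 (0.39 ± 0.09, adjusted p = 0.027), where 3.85% of genes were called higher. Cd163 and F13a1, called with the block, were not called there (adjusted p = 0.14 and 0.083). Within the block the count of markers was 6 without replicate 1, 10 without replicate 2 and 2 without replicate 3 (5.69, 4.79 and 1.63% of all genes called higher), so replicate numbers 2 and 3 moved it in opposite directions. The median log2 fold change of the 10 markers was 0.55 with the block, beside 0.005 over all genes tested.

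**Figure D2:**
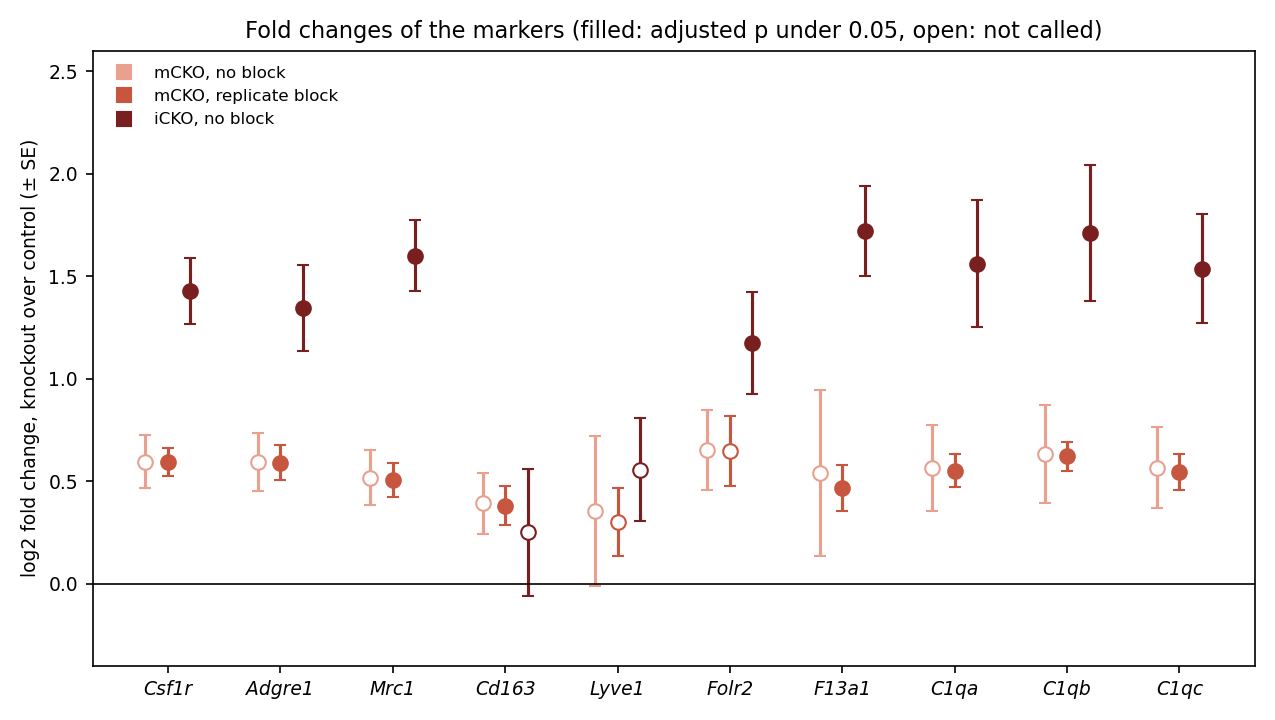
Log2 fold change of knockout over control with its standard error (vertical axis) for each marker, in mCKO without and with the replicate block and in iCKO without it. Filled circles passed the test at an adjusted p under 0.05, which 0, 8 and 8 of the 10 markers did.

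Inducible loss was compared with tamoxifen-treated CTR2 to ask what differs soon after Ddx5 is deleted in the adult heart. All 10 marker means were again above control, by 1.19-fold (Cd163) to 3.29-fold (F13a1), and 8 of the 10 rose, where 25.2% of 13548 tested genes were called higher and 19.5% lower. The same 8 had all iCKO libraries above all CTR2 libraries, as 31.9% of all tested genes did. Cd163 and Lyve1 were not called. The median log2 fold change of the 10 was 1.48, beside 0.03 over all genes. With library sizes alone as scaling, the median of all genes moved to 0.24 and the calls to 4592 higher (33.9%) and 1832 lower, from 3420 and 2648 with TMM, and 9 markers were called.

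The receptor and identity genes rose clearly above a narrow control range. Csf1r stood at 54.3, 54.1 and 49.7 CPM in CTR2 and at 118, 144 and 163 CPM in iCKO, a log2 fold change of 1.43 ± 0.16 (adjusted p = 3e-04). Adgre1 stood at 15.4, 13.4 and 11.02 CPM in CTR2 and at 25.7, 38.5 and 37.1 CPM in iCKO (1.35 ± 0.21, adjusted p = 0.0013). For both, the lowest iCKO library exceeded the highest control by at least the whole control range. Mrc1 stood at 41.2, 50.6 and 38.5 CPM in CTR2 and at 111, 140.3 and 143 CPM in iCKO, with no overlap and a log2 fold change of 1.60 ± 0.17 (adjusted p = 0.00027). Folr2 stood at 9.06, 5.98 and 7.60 CPM in CTR2 and at 12.3, 17.2 and 21.5 CPM in iCKO (1.17 ± 0.25, adjusted p = 0.0057). F13a1 stood at 81.1, 62.6 and 64.2 CPM in CTR2 and at 177, 213 and 296 CPM in iCKO, and had the highest fold of means of the set (1.72 ± 0.22, adjusted p = 0.00055). All of these genes were separate between the groups.

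Cd163 and Lyve1 did not pass the test. Cd163 stood at 30.6, 55.5 and 38.0 CPM in CTR2 and at 36.0, 39.5 and 72.3 CPM in iCKO, with control replicate 2 above 2 of the knockout libraries. Its log2 fold change was 0.25 ± 0.31 (adjusted p = 0.54), and without iCKO replicate 3 it turned to -0.17 (adjusted p = 0.58). Lyve1 stood at 29.4, 48.7 and 26.7 CPM in CTR2 and at 41.3, 51.2 and 61.6 CPM in iCKO. Its groups overlapped through control replicate 2, and its log2 fold change was 0.56 ± 0.25 (adjusted p = 0.11). Without CTR2 replicate 2 it was 0.87 and passed (adjusted p = 0.016). A value that misses the threshold does not show that these genes were unchanged.

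The C1q chains rose together, and most in 1 library. C1qa stood at 37.6, 48.8 and 31.4 CPM in CTR2 and at 78.7, 94.8 and 175 CPM in iCKO (1.56 ± 0.31, adjusted p = 0.0042). C1qb stood at 38.1, 47.3 and 34.2 CPM in CTR2 and at 83.6, 101 and 207 CPM in iCKO (1.71 ± 0.33, adjusted p = 0.0038). C1qc stood at 41.8, 42.9 and 34.9 CPM in CTR2 and at 78.4, 103 and 166 CPM in iCKO (1.54 ± 0.27, adjusted p = 0.0022). Every knockout library was above every control, and iCKO replicate 3 held the highest level of each chain. Without both replicate 3 libraries the log2 fold changes were 0.96 ± 0.18 (C1qa, adjusted p = 0.0098), 1.07 ± 0.17 (C1qb, adjusted p = 0.0062) and 1.05 ± 0.17 (C1qc, adjusted p = 0.0064), and all 8 calls were still made, with 19.6% of all genes called higher. The 10 markers summed to 379, 430 and 336 CPM in CTR2 and to 762, 943 and 1342 CPM in iCKO. In iCKO replicate 3 was the highest library for 9 markers and replicate 1 the lowest for all 10, so the knockout libraries ranked nearly the same way throughout the set.

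The effects of both deletions were then compared directly, as the mCKO effect minus the iCKO effect in 1 fit of all 12 libraries. Csf1r and Mrc1 rose less in mCKO than in iCKO, by a log2 difference of -0.80 ± 0.21 (adjusted p = 0.019) and -1.05 ± 0.23 (adjusted p = 0.0073). These were 2 of 10 markers, where 9.88% of 13871 genes were called lower and 11% higher. The other 8 did not pass. Adgre1 had a difference of -0.72 ± 0.27 (adjusted p = 0.075), C1qc of -0.95 ± 0.37 (adjusted p = 0.088), F13a1 of -1.15 ± 0.49 (adjusted p = 0.11), C1qa of -0.97 ± 0.42 (adjusted p = 0.12) and C1qb of -1.06 ± 0.46 (adjusted p = 0.13). Folr2 (-0.49 ± 0.34, adjusted p = 0.32), Lyve1 (-0.17 ± 0.48, adjusted p = 0.83) and Cd163 (0.17 ± 0.40, adjusted p = 0.80) were nearer to 0 with wide errors. With the block F13a1 joined the lower calls (-1.20 ± 0.29, adjusted p = 0.017), where 13.3% of genes were lower. The models differ in the Cre, in tamoxifen, in the time since deletion and in the table they were deposited in, and these cannot be told apart. With library sizes alone as scaling, 1103 genes were called higher and 2145 lower (15.5%), from 1521 and 1371 with TMM, and 4 markers were lower.

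Whether the markers kept their proportions was asked within each library, as counts of a marker per count of Csf1r, a measure that scaling does not touch. Adgre1 kept a narrow ratio within each experiment, at 0.326 ± 0.009 in CTR1, 0.325 ± 0.0147 in mCKO, 0.251 ± 0.0311 in CTR2 and 0.238 ± 0.0268 in iCKO (SD, n = 3). Cd163 per Csf1r was 0.786 ± 0.234 in CTR2 (0.564 to 1.03) and 0.341 ± 0.0907 in iCKO (0.274 to 0.444). Lyve1 per Csf1r was 0.659 ± 0.209 in CTR2 (0.536 to 0.9) and 0.361 ± 0.0151 in iCKO (0.349 to 0.378). For both receptors all iCKO libraries lay below all CTR2 libraries (two-sided exact permutation p = 0.1, the smallest that 3 against 3 allows, and adjusted p = 0.45 over 9 ratios), so this difference could not pass the threshold in this design. The remaining 7 iCKO ratios gave exact permutation p-values from 0.2 to 0.9. In mCKO, Cd163 per Csf1r was 0.392 ± 0.0806 against 0.452 ± 0.0639 in CTR1, and Lyve1 per Csf1r 0.257 ± 0.0939 against 0.309 ± 0.054, with overlapping groups (exact permutation p = 0.4 for each). The C1q chains kept near equal shares of their summed counts, with C1qb at 35.0% ± 2.01 in CTR1, 36.2% ± 0.551 in mCKO, 33.5% ± 0.924 in CTR2 and 35.5% ± 2.15 in iCKO (SD, n = 3).

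**Figure D3:**
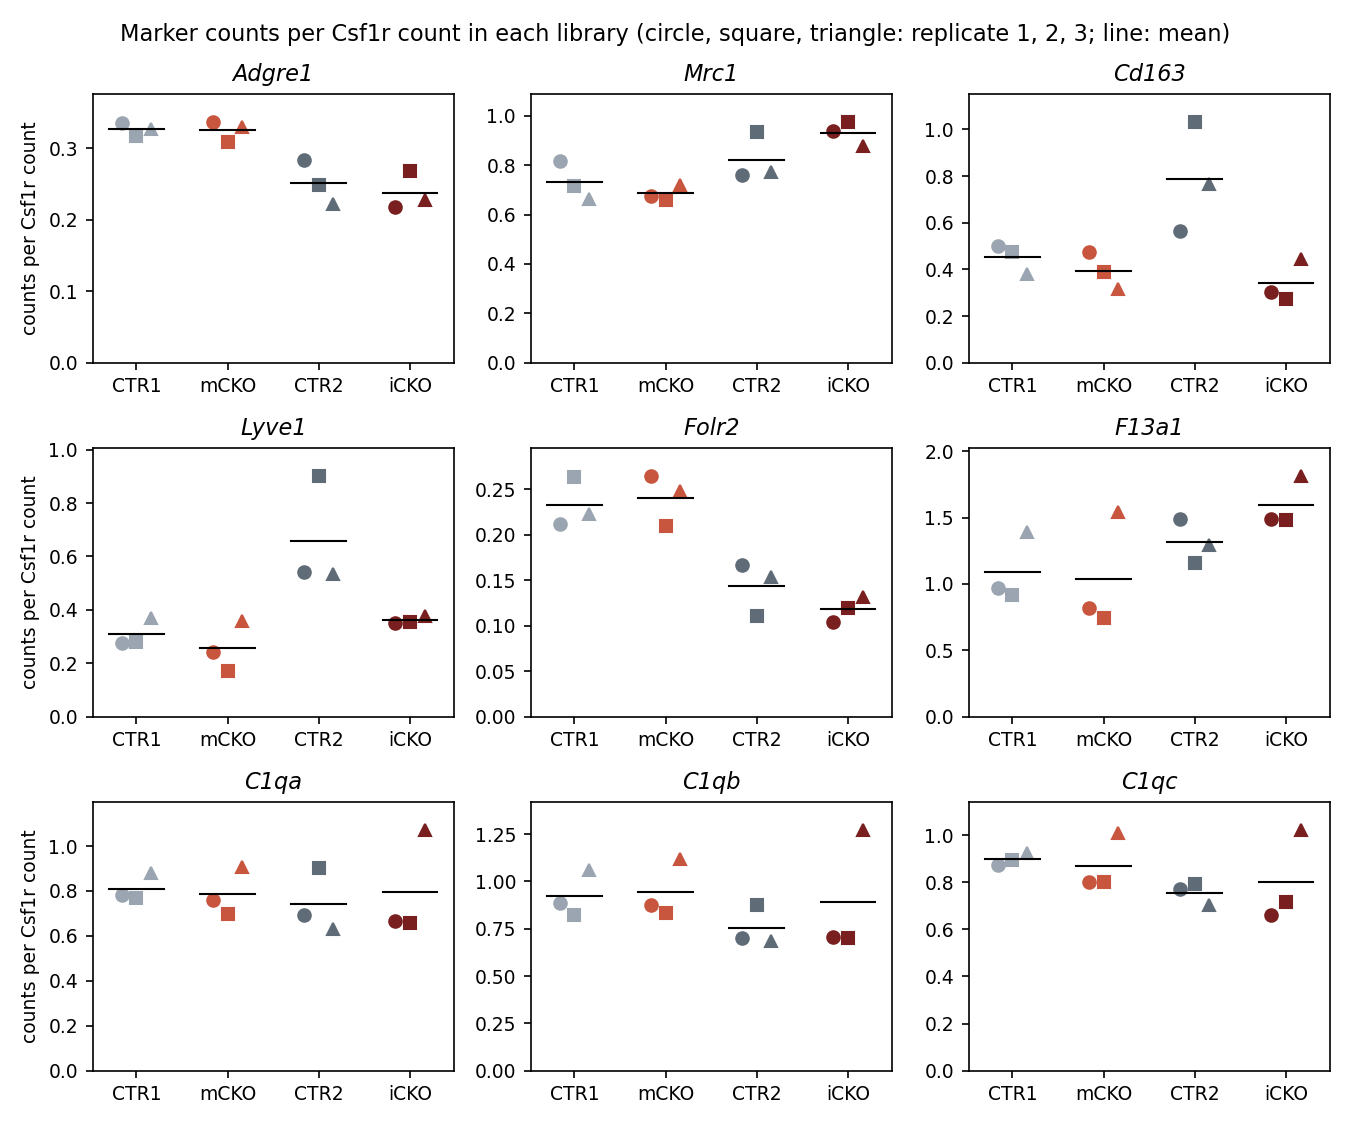
Counts of each marker per count of Csf1r (vertical axes, linear from 0) in each library, with the mean of each group as a line. Cd163 and Lyve1 are the only panels in which all iCKO libraries lie below all CTR2 libraries, at means of 0.341 against 0.786 and 0.361 against 0.659.

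Within groups the markers varied together. Over the 12 libraries, as deviations of log2 CPM from each group's mean, Pearson correlations were 0.962 to 0.987 among the C1q chains and 0.962 between Csf1r and C1qc. The median of all 45 marker pairs was 0.75 and the lowest value was 0.10, between Cd163 and F13a1. Csf1r had the highest mean correlation with the other markers (0.823) and Cd163 the lowest (0.457). These are descriptions over libraries that share depth and scaling, and replicate 3 stands apart in part of them. Its markers differed from the mean of replicates 1 and 2 by a median log2 value of 0.46 in mCKO, 0.24 in CTR1, 0.59 in iCKO and -0.26 in CTR2. Of 11773 other genes with an average log2 CPM of at least 1, the 10 most like the set in this measure were Dusp23 (mean r = 0.848), Castor1 (0.847), Lfng (0.83), Tlr13 (0.829), Dok1 (0.827), Cd53 (0.825), Pcna (0.825), Cstb (0.822), Pmp22 (0.822) and Tmem219 (0.822). Tlr13, an endosomal receptor for bacterial ribosomal RNA, and Cd53, a leukocyte tetraspanin, rose in iCKO (2.70 ± 0.33, adjusted p = 0.00043, and 2.30 ± 0.27, adjusted p = 4e-04), while Dusp23 fell (-1.76 ± 0.19, adjusted p = 0.00024). Dok1, Cstb, Pmp22, Tmem219 and Pcna also rose there, by 2.14, 1.79, 1.96, 0.847 and 0.595 (adjusted p = 0.0037, 0.0027, 0.00048, 0.012 and 0.021). Castor1 and Lfng were not called (adjusted p = 0.96 and 0.092).

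The other lists are to be read against the shares of all tested genes, which in iCKO were 25.2% called higher and 19.5% called lower. For mCKO the blocked fit called 7.32% higher and 6.45% lower, and 3.85% were called higher without both replicate 3 libraries. Genes acting directly with Csf1r were read first. Of its 2 ligands and 8 signalling partners, 7 of 10 rose in iCKO and none fell. The adaptor genes Fcer1g and Tyrobp were among them, Fcer1g by 2.22 ± 0.31 (adjusted p = 0.00087) and Tyrobp by 2.43 ± 0.38 (adjusted p = 0.0014). In mCKO 5 of 10 rose with the block, among them Plcg2 (0.72 ± 0.11, adjusted p = 0.0016), the ligand gene Csf1 (0.35 ± 0.06, adjusted p = 0.0056) and Fcer1g (0.53 ± 0.11, adjusted p = 0.01), and 2 of 10 without both replicate 3 libraries. Of macrophage transcription factors, 6 of 11 tested rose and 1 fell in iCKO (5 and 0 without both replicate 3 libraries), led by Runx1 (2.68 ± 0.24, adjusted p = 0.00012), Spi1 (2.19 ± 0.29, adjusted p = 0.00067) and Irf5 (1.67 ± 0.25, adjusted p = 0.0011). In mCKO with the block 3 of 11 rose, Irf8 (0.57 ± 0.11, adjusted p = 0.0074) and Spi1 (0.63 ± 0.13, adjusted p = 0.0092) among them, and Klf4 fell (-0.28 ± 0.07, adjusted p = 0.017). Without both replicate 3 libraries 1 rose and none fell.

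General leukocyte and myeloid markers rose alongside the resident set. In iCKO 18 of 18 were higher, with a median log2 fold change of 2.12, and their summed level was 293 to 394 CPM in CTR2 and 1000 to 1998 CPM in iCKO. Itgam, which encodes CD11b, rose by 3.12 ± 0.24 (adjusted p = 8.5e-05), the high-affinity IgG receptor gene Fcgr1 by 3.70 ± 0.30 (adjusted p = 9.1e-05) and Laptm5 by 2.06 ± 0.18 (adjusted p = 0.00011). In mCKO 14 of 18 were higher with the block, led by Laptm5 (0.66 ± 0.07, adjusted p = 0.00025), the cathepsin gene Ctss (0.77 ± 0.09, adjusted p = 0.00034) and Mpeg1 (0.72 ± 0.09, adjusted p = 0.00059), and their summed level was 422 to 650.5 CPM in CTR1 and 573 to 1061 CPM in mCKO. Of 18 further markers of the resident type, 9 of 16 tested rose and none fell in iCKO, and 6 of 16 rose and none fell in mCKO with the block. Without both replicate 3 libraries 6 rose in iCKO and Selenop, named after its value was seen, fell (-0.59 ± 0.13, adjusted p = 0.017), with the median moving from 1.09 to 0.74, and 3 rose in mCKO. Their summed levels overlapped, at 789 to 822 CPM in CTR2 and 809 to 1031 CPM in iCKO, and at 738 to 1097 CPM in CTR1 and 899 to 1446 CPM in mCKO. Igf1, a growth factor gene, rose by 1.83 ± 0.18 in iCKO (adjusted p = 0.00019) and by 0.58 ± 0.11 in mCKO with the block (adjusted p = 0.0066). In the same order and fits, Siglec1 rose by 2.15 ± 0.29 (adjusted p = 0.00065) and 0.84 ± 0.14 (adjusted p = 0.0055). The scavenger receptor gene Stab1 rose by 1.13 ± 0.17 (adjusted p = 0.0012) and 0.60 ± 0.08 (adjusted p = 0.0015). Without the block no gene was called in mCKO. Timd4, the phosphatidylserine receptor gene of self-renewing resident macrophages, was singled out after its values were seen. It stood at 3.18, 2.98 and 3.34 CPM in CTR1 and 4.73, 5.13 and 4.83 CPM in mCKO, where it rose with the block (0.63 ± 0.17, adjusted p = 0.031) but not without it (0.63 ± 0.16, adjusted p = 0.31), and at 1.87, 1.51 and 1.58 CPM in CTR2 and 1.94, 1.20 and 0.484 CPM in iCKO (-0.45 ± 0.46, adjusted p = 0.45).

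Markers of recruited monocytes and wound macrophages had the highest median change of the lists in iCKO. There 14 of 15 rose, with a median log2 fold change of 4.01, and their summed level was 202 to 220 CPM in CTR2 and 1125 to 1790 CPM in iCKO. Most of the iCKO sum came from Fn1 (453 ± 154 CPM), Spp1 (290 ± 281), Thbs1 (202 ± 89) and Vcan (138 ± 49.3, SD). Which cells made these transcripts was not tested. Ccr2 stood at 2.78, 2.26 and 1.89 CPM in CTR2 and at 34.1, 43.8 and 40.1 CPM in iCKO, a log2 fold change of 4.09 ± 0.21 (adjusted p = 2e-05). Thbs1 rose by 4.18 ± 0.36 (adjusted p = 0.00011) and Vcan by 3.21 ± 0.30 (adjusted p = 0.00015). Monocytes and the macrophages they become also express Csf1r, Adgre1, F13a1 and others of the 10 markers, and the part of recruited cells in the iCKO result was not tested. In mCKO 5 of 14 tested rose with the block, Lgals3 (0.87 ± 0.15, adjusted p = 0.0038), the fibronectin gene Fn1 (0.28 ± 0.06, adjusted p = 0.014) and Vcan (0.38 ± 0.11, adjusted p = 0.042) among them, and none of 13 without both replicate 3 libraries. Ccr2 stood at 1.86, 2.51 and 3.57 CPM in CTR1 and 3.07, 3.17 and 3.86 CPM in mCKO, and was not called (0.37 ± 0.20, adjusted p = 0.27 with the block). The test of the difference called Ccr2 lower in mCKO than in iCKO (-3.71 ± 0.33, adjusted p = 5.4e-05).

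Other complement genes were listed broadly, with receptors and factors that do not bind C1q among them. They did not move as a group in iCKO, where 5 of 15 tested rose and 3 fell, with a median of -0.03. Cfb (2.61 ± 0.28, adjusted p = 0.00026), the complement receptor gene Itgax (4.57 ± 0.49, adjusted p = 0.00027) and C5ar1 (2.14 ± 0.24, adjusted p = 0.00034) rose. In mCKO with the block 8 of 16 rose and none fell, led by the properdin gene Cfp (0.80 ± 0.12, adjusted p = 0.0019), C3ar1 (0.64 ± 0.10, adjusted p = 0.0022) and C4b (0.79 ± 0.12, adjusted p = 0.007), and 4 of 15 rose without both replicate 3 libraries. Of scavenging and efferocytosis genes, 9 of 13 rose and 2 fell in iCKO. The scavenger receptor gene Msr1 rose by 2.93 ± 0.27 (adjusted p = 0.00014), the fatty acid transporter gene Cd36, which cardiomyocytes and endothelium also express, fell by 1.54 ± 0.15 (adjusted p = 0.00015), and the haemopexin gene Hpx rose by 7.78 ± 0.80 (adjusted p = 0.00021) from 1 to 4 counts a library in CTR2. In mCKO with the block 6 of 12 rose and 1 fell, led by Hmox1 (0.64 ± 0.12, adjusted p = 0.0055), Trf (0.37 ± 0.08, adjusted p = 0.011) and Msr1 (0.61 ± 0.15, adjusted p = 0.02), and 1 of 11 rose without both replicate 3 libraries.

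**Figure D4:**
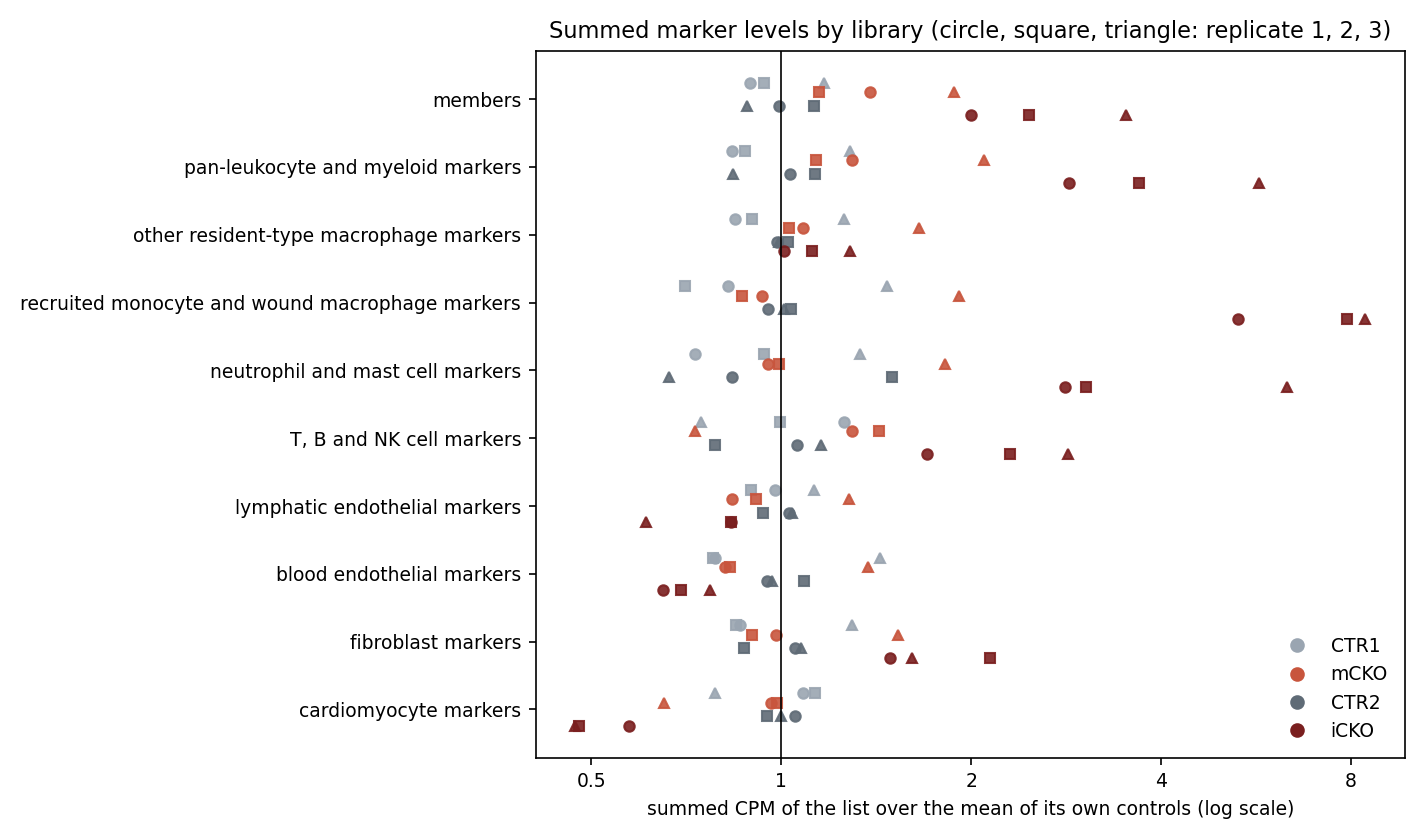
Summed CPM of each marker list in each library, divided by the mean of the list's own control group (horizontal axis, log scale), with the 10 markers in the top row. Of the lists drawn, recruited monocyte markers lie farthest to the right in iCKO and cardiomyocyte markers farthest to the left, and the 10 markers of mCKO, at 555 to 909 CPM, overlap their controls at 433 to 566 CPM.

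Other cells of the ventricle were read from their own markers. Cardiomyocyte markers summed to 124300 to 137300 CPM in CTR2 and 61620 to 75050 CPM in iCKO, with 9 of 12 called lower, and to 96290 to 138700 CPM in CTR1 and 79850 to 120800 CPM in mCKO, with 7 of 12 called lower with the block. In iCKO the phospholamban gene Pln fell by 1.94 ± 0.14 (adjusted p = 6.1e-05), the calcium pump gene Atp2a2 by 1.87 ± 0.23 (adjusted p = 0.00041) and Tnni3 by 1.63 ± 0.20 (adjusted p = 0.00042). In mCKO with the block Ryr2 fell by 0.53 ± 0.06 (adjusted p = 0.00032), Tnni3 by 0.42 ± 0.06 (adjusted p = 0.001) and Atp2a2 by 0.42 ± 0.06 (adjusted p = 0.0017). As these transcripts make up a large part of all counts, their fall enters the CPM of every other gene, and its part in the marker results was not tested beyond the change of scaling given above. The ratios per Csf1r count do not depend on it.

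Markers listed for lymphatic endothelium, which also expresses Lyve1, had calls in both directions. In iCKO 1 of 8 of these markers rose and 2 fell, beside the 25.2% and 19.5% of all genes, and without both replicate 3 libraries 2 rose and 1 fell. The calls were the podoplanin gene Pdpn by 2.97 ± 0.19 upward (adjusted p = 4.9e-05), and Prox1 and Mmrn1 with values of -1.33 ± 0.31 (adjusted p = 0.0084) and -0.58 ± 0.17 (adjusted p = 0.024). The summed level of the list was 216 to 240.3 CPM in CTR2 and 141 to 193 CPM in iCKO. Prox1 alone held a large part of this sum, at 117 ± 18.6 CPM in CTR2 and 46.4 ± 19.8 CPM in iCKO (SD). The fall of Prox1 therefore weighs on the sum, while Pdpn went from 3.69 ± 0.693 to 28.9 ± 2.11 CPM. Which cells made the Prox1 and Pdpn transcripts was not tested, so the sum is not a measure of lymphatic endothelium. In mCKO with the block Ccl21a (0.43 ± 0.09, adjusted p = 0.012) and Flt4 (0.35 ± 0.09, adjusted p = 0.024) rose and Prox1 fell (-0.36 ± 0.08, adjusted p = 0.016), and none of the 8 was called without both replicate 3 libraries. The part of lymphatic endothelium in the Lyve1 values was not tested. Fibroblast markers rose for 5 and fell for 4 of 12 in iCKO and rose for 6 of 12 in mCKO with the block, while blood endothelial markers fell for 5 of 12 in iCKO and rose for 1 of 12 in mCKO with the block. The blood endothelial count depended on the scaling, with 1 higher and 1 lower in iCKO by library sizes only, and none was called in mCKO without both replicate 3 libraries.

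Summed levels of lymphocyte and granulocyte markers lay below those of the 10 markers in every group, and cell numbers were not measured. T, B and NK cell markers summed to 1.84 to 2.70 CPM in CTR2 and 3.98 to 6.67 CPM in iCKO, without overlap, and to 5.24 to 8.85 CPM in CTR1 and 5.12 to 10.1 CPM in mCKO. Of those tested, 1 of 2 rose in iCKO, the B cell receptor gene Cd79b, named after its value was seen (2.15 ± 0.66, adjusted p = 0.028; none of 3 without both replicate 3 libraries) and none of 6 was called in mCKO with the block. Cd3e stood at 0 counts in all CTR2 libraries, which allows up to 3 counts a library (0.106 to 0.157 CPM over the 12 libraries, for counting error only). Neutrophil and mast cell markers summed to 9.74 to 22.0 CPM in CTR2 and 41.3 to 93.0 CPM in iCKO, where 6 of 11 tested rose, led by Csf3r (3.13 ± 0.24, adjusted p = 8.5e-05) and Cxcr2 (4.70 ± 0.49, adjusted p = 0.00024). The highest sum was that of iCKO replicate 3, beside 41.3 and 44.5 CPM in replicates 1 and 2, and without both replicate 3 libraries 3 of 11 rose and the median moved from 1.51 to 0.63. None of 6 tested was called in mCKO with the block. Dendritic cell markers rose for 2 of 3 tested in iCKO, Cd209a (3.23 ± 0.63, adjusted p = 0.0039) and Flt3 (2.29 ± 0.58, adjusted p = 0.013), and for none of 3 in mCKO, with 1 of 3 in iCKO without both replicate 3 libraries. Platelet and erythroid markers rose for 1 and fell for 5 of 7 in iCKO, and summed to 417, 1176 and 259.5 CPM in CTR2 and to 64.8, 68.4 and 269.9 CPM in iCKO, where the groups overlapped and control replicate 2 stood highest. The part of these cells in the marker results was not tested.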

How the data were processed

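Polyadenylated RNA of left ventricles was measured in 12 libraries, 3 in each of 4 groups taken from the sample titles and genotype labels. Per the labels' protocols, Trizol extraction was followed by the TruSeq stranded mRNA kit, and the submitters' processing notes name HISAT2, DESeq and GRCm38. Their versions, the annotation, the counter and its strand setting were not given in those sources. The authors deposited raw counts per gene, in 1 table for mCKO with CTR1 (17260 genes) and 1 for iCKO with CTR2 (17325 genes). A count of 0 allows up to 3 counts, 0.106 to 0.157 CPM by library, for counting error only.

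From these deposited counts, low genes were dropped with filterByExpr (at its settings of 10 for the count and 15 for the total), the rest scaled by TMM and tested over all genes with edgeR 4.0.16 quasi-likelihood fits in R 4.3.3, with two-sided Benjamini-Hochberg adjusted p-values called at 0.05. CPM and log2 values were computed here, with a prior count of 2 for log2 CPM used in correlations. The standard error is the log2 fold change divided by the square root of F. The difference between models was fitted over the 16673 genes in both tables. DESeq2 1.42.0, limma-voom (limma 3.58.1), other scalings, no filter, left-out libraries and the replicate number as a block were alternatives. Deviations from the group means correlated between mCKO and CTR1 libraries of the same number (r = 0.464, 0.532 and 0.823), which met the limit of 0.1 set for pairing, so that block results stand beside the others. Libraries of numbers 1 and 2 also correlated with each other (0.529 and 0.553), and what the number stands for is not in the labels. Deviations from a group mean are tied to each other, so a replicate 3 apart in both groups also raises these values. They therefore cannot show whether numbers 1 and 2 are pairs. No libraries of a group agreed within sampling noise (lowest chi-square per degree of freedom 6.25). The fits were also run on simulated data that held no replicate effect, so that run cannot bear on the block calls or on replicate 3.

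The 10 markers and the other gene lists were chosen with earlier results of these data known. All markers are named. Of each other list, up to 3 called genes with the smallest adjusted p in each knockout comparison could be named, with mCKO calls taken from the block fit because the fit without it called none, and the 10 genes most like the markers were taken by mean correlation. A further gene that the rule would name is not reported here. Positions, exon lengths and overlaps came from GENCODE M21 on GRCm38 and promoter sequences from RefSeq on GRCm38.p6.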

Additional observations from a re-analysis of the deposited data

Results flagged for a closer look

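Csf1r and Mrc1 were flagged because the effect of the deletion differed between the models by a direct test of the difference. They were 2 of 10 markers, where 9.88% of 13871 tested genes were called lower and 11% higher. Such calls were therefore common, and not particular to these genes. For Csf1r the mCKO effect minus the iCKO effect was -0.80 on the log2 scale (SE 0.21, adjusted p = 0.019, edgeR quasi-likelihood). Its means rose from 71.3 to 108 CPM in mCKO and from 52.7 to 142 CPM in iCKO, and in each model all 3 knockout libraries were above all 3 controls. For Mrc1 the difference was -1.05 (SE 0.23, adjusted p = 0.0073). Its means were 51.8 and 74.2 CPM in CTR1 and mCKO, and 43.4 and 132 CPM in CTR2 and iCKO. The sign of both differences held in each left-out library, as did the call. The models differ in Cre, tamoxifen, time since deletion and deposited table, and these cannot be told apart.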

How the results depend on the processing

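In mCKO the calls depended on how the replicate number was treated. The fit without a block called 0 genes, and with the replicate block 978 were higher, 861 lower and 8 markers higher. DESeq2 called 152 higher, 110 lower and 2 markers (Csf1r and Adgre1), no filter on low counts called 3 and 1, and 1 fit of all 12 libraries called 18 and 6. Without both replicate 3 libraries 514 genes were higher, 526 lower and 6 markers higher. The block with library sizes only gave 1581, 474 and 9. Within the block, leaving out replicate 1, 2 or 3 (added after seeing the data) gave 766, 646 and 218 genes higher, 742, 447 and 170 lower, and 6, 10 and 2 markers. Leaving out single libraries without a block gave 0 to 1 genes higher, 0 lower and 0 markers. The cause of these changes was not tested, and fits on fewer libraries have fewer degrees of freedom. In iCKO, where same-numbered libraries did not deviate together (r = 0.058, -0.09 and -0.161), the replicate block gave 3055 higher, 2436 lower and the same count of 8 markers, and left-out libraries gave 2425 to 3495 higher, 1877 to 3275 lower and 8 to 9 markers. For the difference between models, library sizes only gave 2145 lower genes and 4 lower markers, and left-out libraries gave 1019 to 1691 higher and 910 to 1615 lower genes and 2 to 6 lower markers, with 4 without mCKO replicate 3 and 6 without iCKO replicate 1. Single markers changed sign in 9 cases, none of them called. Lyve1 in mCKO was -0.072 without mCKO replicate 3, in a range up to 0.626 over left-out libraries. Cd163 in iCKO was -0.172 without iCKO replicate 3, in a range up to 0.518, and -0.236 without both replicate 3 libraries (added after seeing the data). In the difference, Cd163 was -0.145, -0.051 and -0.006 without CTR2 replicate 2, iCKO replicate 1 and iCKO replicate 2 (range up to 0.588), and Lyve1 was 0.027, 0.059 and 0.009 without CTR1 replicate 3, mCKO replicate 2 and iCKO replicate 3 (range down to -0.586). The block changed no other call of a marker than those given beside the results. Depth was not limiting for the markers, each of which held well over the 3 counts that a count of 0 allows in every library.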
